A study of Rattus norvegicus with 7 samples.

Results

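The heat shock chaperones of the cytosol and of mitochondria were followed across cultured rat lenses in 10 genes. These were Hspa8, Hspa4, Hsph1, Hsp90aa1, Hsp90ab1, Dnaja1, Dnajb1, Hspd1 and Hspe1, which code for chaperones, and Hsf1, which codes for the transcription factor that switches such genes on. Each was read from the probe of the array that carries its symbol, and of several probes for 1 gene the one of highest mean signal in the 7 arrays was taken. The array has 36685 probes, of which 19086 have a gene and 5320 of those had a log2 signal above 5 in at least 1 array, and all 10 genes are among the 5320. The 7 lens samples came from 6-week-old male Sprague Dawley rats, and the RNA of each was hybridised to its own GeneChip Rat Gene 2.0 ST array. The Glutamate group (2 arrays) was cultured for 6 days with 30 mM galactose, and 20 mM glutamate was added for the last 3 of them. The Galactose group (3 arrays) was cultured for 6 days with 30 mM galactose, and the Control group (2 arrays) without galactose, 1 sample for 6 days (Control Day 6) and 1 for 4 days (Control Day 4). Galactose in the medium makes the cortex of the lens opaque, and the study asked which genes rise with galactose and return when glutamate is added.

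Chaperones bind proteins that are not folded and keep them from sticking together. In the cytosol an HSP70 protein such as Hspa8 takes up a client with the help of an HSP40 protein such as Dnaja1 or Dnajb1, an HSP110 protein such as Hspa4 or Hsph1 resets it by exchanging its nucleotide, and HSP90 (Hsp90aa1 and Hsp90ab1) finishes many signalling proteins, while in mitochondria Hspd1 forms a folding chamber with Hspe1 as its lid. When unfolded proteins build up, Hsf1 is released from chaperones and binds heat shock elements, runs of alternating GAA and TTC units in front of these genes. In the lens the fibre cells keep their proteins for life, and loss of protein solubility is a hallmark of cataract.

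The promoters are shown because Hsf1 is known to act on such genes through heat shock elements in this region. RefSeq promoter windows (build GRCr8, 250 bases before to 50 after the start of the transcript) were given for 8 of the 10 genes, and those of Hsp90aa1 and Hsf1 were not analysed here. Both strands were searched for 2 units, GAANNTTC or TTCNNGAA, and for 3 units, GAANNTTCNNGAA or TTCNNGAANNTTC, where a run of 3 units also counts as overlapping matches of 2 units. A match of 2 units was found in 6 of the 8 windows, each of which held at least 2, and a match of 3 units in 5 of the 8. Of all 33469 windows of this length, 15.9% held at least 1 match of 2 units, 2.28% at least 2 of them, and 0.798% a match of 3 units. The windows of Hspa4 and Hsp90ab1 held none of these letters. Below, capitals mark the matches of 2 units, joined where they overlap.
Hspa8 (GRCr8 chr8:50080264-50080563, plus strand): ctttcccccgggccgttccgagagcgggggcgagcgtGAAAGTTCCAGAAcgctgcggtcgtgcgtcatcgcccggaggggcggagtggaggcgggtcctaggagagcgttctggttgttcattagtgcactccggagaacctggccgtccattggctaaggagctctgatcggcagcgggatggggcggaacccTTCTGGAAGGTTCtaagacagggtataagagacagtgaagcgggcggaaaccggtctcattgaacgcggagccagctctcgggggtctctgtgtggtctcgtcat
Dnajb1 (GRCr8 chr19:41431092-41431391, minus strand): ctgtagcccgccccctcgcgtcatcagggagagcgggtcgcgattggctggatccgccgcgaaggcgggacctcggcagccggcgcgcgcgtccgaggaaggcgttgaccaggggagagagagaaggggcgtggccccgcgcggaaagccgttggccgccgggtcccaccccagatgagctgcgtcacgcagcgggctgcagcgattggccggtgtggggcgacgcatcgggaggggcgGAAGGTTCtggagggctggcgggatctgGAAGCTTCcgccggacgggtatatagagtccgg
Hspe1 (GRCr8 chr9:64084077-64084376, plus strand): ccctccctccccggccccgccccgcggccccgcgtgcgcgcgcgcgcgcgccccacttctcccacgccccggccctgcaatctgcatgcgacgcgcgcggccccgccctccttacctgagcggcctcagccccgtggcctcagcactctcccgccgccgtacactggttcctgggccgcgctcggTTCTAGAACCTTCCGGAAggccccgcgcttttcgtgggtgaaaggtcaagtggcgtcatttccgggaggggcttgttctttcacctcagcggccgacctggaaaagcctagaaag
Hspa8 held 4 matches of 2 units that form 2 runs of 3 units. Dnajb1 held 2 separate matches of 2 units, of which 1 begins 11 bases before the start and the other 17 bases after it, and no run of 3. Hspe1 and Hspd1 are transcribed away from each other from starts that lie 290 bases apart, and their windows share 211 bases, so the capitals in the Hspe1 window are also the matches of Hspd1, read from the other strand. Hsph1 held the run TTCTGGAAAGTTC and Dnaja1 the run GAACTTTCCAGAA. A match is a stretch of letters, and binding of Hsf1 was not measured.

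The arrays bear on these genes with several limits that hold throughout. Values are log2 signals that the authors normalized over all arrays together. The Control arrays lay farthest apart of the pairs within a group: 28.6% of the 5320 probes were at least 2-fold apart, against 0.658% to 6.02% in the other pairs, and the median signal of these probes was 5.55 to 5.76 in the Glutamate and Galactose arrays, 5.37 in Control Day 6 and 5.77 in Control Day 4. All 8 markers of lens fibre cells that have a probe, among them Mip, Lim2 and Bfsp1, were above 5 in every array, with a median signal of 11.55 to 11.79. The 9 markers of lens epithelial cells were each above 5 in at least 1 array, with a median of 6.39 to 7.52. Single lens markers differed more than these medians between the groups, although none passed the adjusted test. Among the epithelial markers, the means were 5.24, 4.77 and 7.76 for Aqp1 in Glutamate, Galactose and Control, 5.95, 4.62 and 6.57 for Foxe3, 6.27, 4.90 and 6.40 for Mab21l1 and 8.23, 9.55 and 7.96 for Pdpn, and among the fibre markers 8.04, 7.43 and 8.69 for Gja3 and 11.41, 10.89 and 11.58 for Mip. Foxe3 was below 5 in all 3 Galactose arrays. Of 43 markers with a probe that stand for blood cells and vessels, connective tissue and muscle, the retina, or the iris with the ciliary body, 40 were at 5 or below in every array, and the exceptions were Cd68, Pdgfra and Des, with means of 4.94, 5.69 and 5.35 in Glutamate, 4.64, 5.08 and 4.09 in Galactose and 3.68, 6.80 and 6.15 in Control. Whether the cells that express these 3 genes, or a shift among lens cells, have a part in the values below was not tested. Lenses were ground for extraction, so fewer cells of a type and less RNA per cell cannot be told apart, and the precision is limited by the number of arrays. Nothing in the labels says that the samples of a group came from separate animals, so that each p-value measures the spread between these samples.

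**Figure D1:**
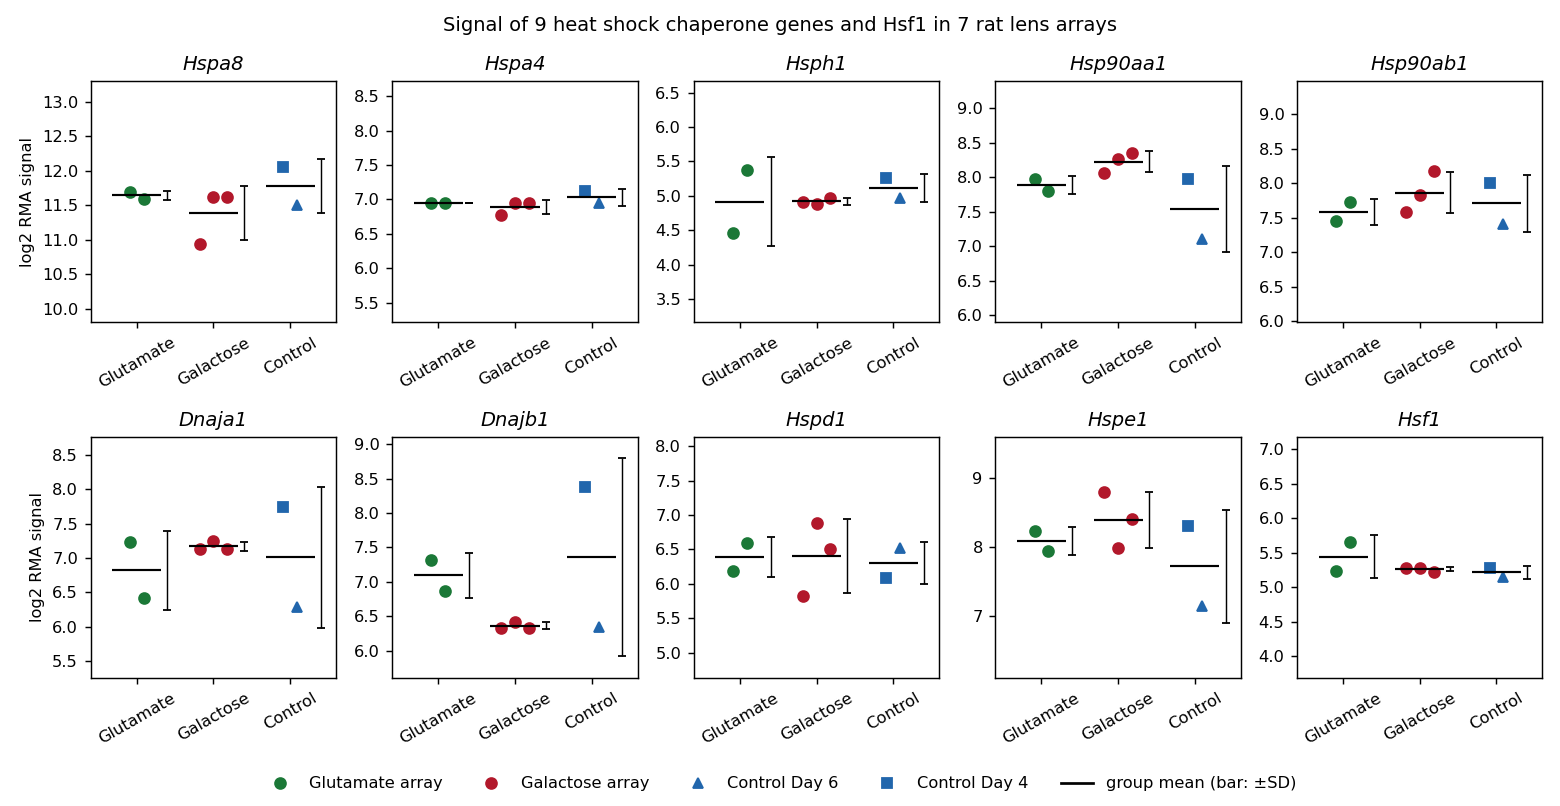
Log2 signal (vertical axis, each panel spanning the same range) of the 9 chaperone genes and Hsf1 in the Glutamate, Galactose and Control arrays, 1 point per array, with the group mean as a line and the SD as a bar beside it. The Control arrays of Dnajb1 lie at 6.35 (Control Day 6) and 8.37 (Control Day 4), and the Galactose arrays of Hsp90aa1 lie between 8.06 and 8.35, above all Glutamate and Control arrays.

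Of the 10 genes 0 rose and 0 fell in any of the 3 comparisons in limma, at an adjusted p under 0.05 over all 5320 probes. For Galactose against Control 0.0940% of all probes passed, 0.0564% upward and 0.0376% downward, and in both comparisons of Glutamate 0.00% passed in either direction. At an unadjusted p under 0.05 the count was also 0 of 10 in each comparison, where 17.0% of all probes passed for Galactose against Control, 5.53% for Glutamate against Galactose and 6.62% for Glutamate against Control (2.93% upward and 3.68% downward). In a limma fit of the Galactose and Glutamate arrays alone it was 1 of 10 for Glutamate against Galactose, Dnajb1. In that fit 113 of the 5320 probes passed upward and 523 downward. No group mean of any of the 10 genes was 2-fold from another, where 11.0% of all probes were for Galactose against Control, 2.84% for Glutamate against Galactose and 3.95% for Glutamate against Control. Dnajb1 came closest, with a log2 fold change of -0.99 for Galactose against Control. It was past 2-fold with arrays centred on their median (-1.14) and after another quantile normalization (-1.17). The Galactose mean lay above the Control mean for 6 of the 10 genes and below it for 4 (62.0% and 38.0% of all probes), but Hspd1 and Hsf1 turned below it with arrays centred on their median, and with them Hsp90ab1 and Dnaja1 after another quantile normalization. The Glutamate mean lay above the Galactose mean for 4 genes and below it for 6 (35.4% and 64.6%), where Hsph1 and Hspd1 turned above it under both of these scalings. It lay above the Control mean for 4 and below it for 6 (56.1% and 43.8%). The study picked genes by group means, with a Galactose mean 2-fold or more above Control and a Glutamate mean 1.5-fold or more below Galactose, which took 0 of the 10 genes and 4.77% of all probes. The median log2 fold change of the 10 genes was 0.08 for Galactose against Control, from -0.99 to 0.68, beside 0.17 for all probes. For Glutamate against Galactose it was -0.01, from -0.35 to 0.73, beside -0.11 for all probes, and both comparisons share the Galactose arrays. With arrays centred on their median these medians turned to -0.072 and 0.10, beside 0.02 and 0.00 for all probes, and 2 of the 10 genes then had an unadjusted p under 0.05 for Galactose against Control, Dnajb1 and Hsp90aa1 (adjusted p = 0.202 and 0.234 from limma), where 20.6% of all probes did.

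**Figure D2:**
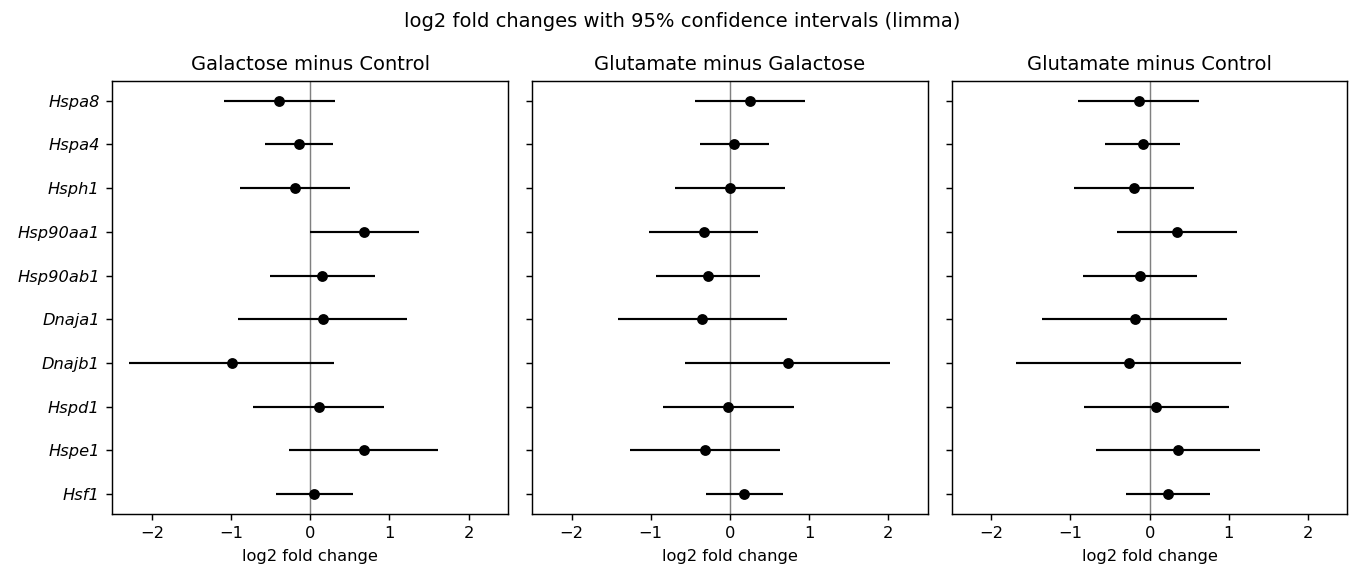
Log2 fold change of each gene (points) with its 95% confidence interval from limma (lines) for Galactose minus Control, Glutamate minus Galactose and Glutamate minus Control, with 0 as a vertical line. All 30 intervals include 0, and the widest are those of Dnajb1.

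Among the HSP70 and HSP110 genes, Hspa8, the constitutive HSP70 of the cytosol, had log2 signals of 11.69 and 11.60 in the Glutamate arrays, 10.94, 11.62 and 11.62 in the Galactose arrays, and 11.51 in Control Day 6 and 12.06 in Control Day 4. Galactose 1 was the lowest array and Control Day 4 the highest, and the other 5 arrays lay close together between them. The log2 fold change was -0.39 for Galactose against Control (95% confidence interval -1.09 to 0.31, adjusted p = 0.466 from limma) and 0.25 for Glutamate against Galactose (-0.45 to 0.95, adjusted p = 0.955). Without Galactose 1 these values were -0.16 and 0.03, and -0.76 and 0.50 when the arrays were quantile normalized again. In Galactose 1 the median of the epithelial markers was 6.39, against 7.52 and 7.40 in Galactose 2 and 3. It was 7.22 and 6.69 in the Glutamate arrays, 6.74 in Control Day 6 and 7.23 in Control Day 4. Whether a shift in these markers has a part in the Hspa8 value, or in that of Hspd1 below, was not tested. Hspa4, an HSP110 protein that releases ADP from HSP70, was at 6.94 in both Glutamate arrays, at 6.78, 6.94 and 6.94 in the Galactose arrays and at 6.94 in Control Day 6 and 7.12 in Control Day 4. This value of 6.94 is identical to 6 decimals in 5 arrays. Such ties are common in the deposited table, where 2009 of the 5320 probes (37.8%) have the same value in at least 2 arrays, but only 53 (0.996%) in 5 or more. The confidence interval of Hspa4 for Galactose against Control ran from -0.58 to 0.29. Hsph1, the other HSP110 gene, was at 4.46 and 5.37 in the Glutamate arrays, 4.91, 4.88 and 4.97 in the Galactose arrays, and 4.97 in Control Day 6 and 5.25 in Control Day 4. Only Glutamate 2 and Control Day 4 were above 5, and the Glutamate arrays enclosed all others, so most of its values were below the limit that a probe had to pass in 1 array.

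Hsp90aa1, the stress-inducible HSP90, had signals of 7.98 and 7.80 in the Glutamate arrays, 8.06, 8.26 and 8.35 in the Galactose arrays, and 7.10 in Control Day 6 and 7.98 in Control Day 4. It was the 1 gene of the 10 whose Galactose arrays lay apart from both Control arrays, where 21.5% of all probes lay apart upward and 12.1% downward, 33.6% in all, and its Galactose arrays also lay above both Glutamate arrays. The log2 fold change was 0.68 for Galactose against Control (standard error 0.29, interval -0.01 to 1.37, adjusted p = 0.296 from limma) and -0.33 for Glutamate against Galactose (standard error 0.29, interval -1.02 to 0.36, adjusted p = 0.930). When the arrays were quantile normalized again, they were 0.31 and -0.063. The probe is shared with the pseudogene Hsp90aa1-ps17, so that the source of its signal is uncertain. Hsp90ab1, the constitutive HSP90, had 7.45 and 7.72 in the Glutamate arrays, 7.58, 7.83 and 8.17 in the Galactose arrays, and 7.41 in Control Day 6 and 8.0 in Control Day 4. Its groups overlapped, with log2 fold changes of 0.15 (interval -0.51 to 0.81) for Galactose against Control and -0.28 (-0.94 to 0.38) for Glutamate against Galactose.

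Dnajb1, an HSP40 protein that is strongly induced by heat in many cells, varied most of the 10 genes over the arrays, by 2.04. It had 7.32 and 6.86 in the Glutamate arrays, 6.34, 6.42 and 6.33 in the Galactose arrays, and 6.35 in Control Day 6 and 8.37 in Control Day 4. Its Galactose arrays lay close to one another and to Control Day 6, both Glutamate arrays lay above them, and Control Day 4 stood highest. Non-overlapping arrays between Glutamate and Galactose were seen for 2 of the 10 genes, Dnajb1 upward and Hsp90aa1 downward, where 29.5% of all probes lay apart, 7.76% upward and 21.7% downward. The log2 fold change of Dnajb1 was 0.73 for Glutamate against Galactose (standard error 0.54, interval -0.57 to 2.03, adjusted p = 0.916 from limma). This error includes the gap between the Control arrays, and with the Galactose and Glutamate arrays alone it was 0.18 (adjusted p = 0.285). For Galactose against Control the value was -0.99 (interval -2.29 to 0.30, adjusted p = 0.359). Dnaja1, an HSP40 protein of the cytosol that is anchored by a farnesyl lipid group, had 7.23 and 6.41 in the Glutamate arrays, 7.13, 7.25 and 7.13 in the Galactose arrays, and 6.29 in Control Day 6 and 7.74 in Control Day 4. Its Galactose arrays lay between the Control arrays, and the log2 fold change was 0.16 for Galactose against Control (interval -0.91 to 1.23) and -0.35 for Glutamate against Galactose (-1.42 to 0.72).

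The mitochondrial pair did not run together. Hspd1, the chamber, had signals of 6.19 and 6.60 in the Glutamate arrays, 5.83, 6.89 and 6.51 in the Galactose arrays, and 6.52 in Control Day 6 and 6.09 in Control Day 4. Hspe1, the lid, had 8.23 and 7.94 in the Glutamate arrays, 8.79, 7.98 and 8.41 in the Galactose arrays, and 7.14 in Control Day 6 and 8.30 in Control Day 4. Galactose 1 was the lowest of the 7 arrays for Hspd1 and the highest for Hspe1, and Pearson's r of the pair was -0.59 over the 7 arrays, the lowest of the 45 pairs among the 10 genes. The log2 fold change for Galactose against Control was 0.11 (interval -0.73 to 0.94) for Hspd1 and 0.67 (-0.27 to 1.62, adjusted p = 0.381 from limma) for Hspe1. For Glutamate against Galactose it was -0.02 (-0.85 to 0.81) and -0.31 (-1.26 to 0.63). A second probe of Hspd1 was at 5 or below in every array, and with the mean of both probes the value for Glutamate against Galactose was 0.03. Hsf1, the regulator, was at 5.23 and 5.66 in the Glutamate arrays, 5.28, 5.28 and 5.22 in the Galactose arrays, and 5.14 in Control Day 6 and 5.28 in Control Day 4. It had the narrowest span of the genes but Hspa4, 0.52, and log2 fold changes of 0.05 (interval -0.44 to 0.54) and 0.18 (-0.31 to 0.67) in the same 2 comparisons. Its protein and its binding to DNA, by which it is mostly regulated, were not measured.

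For Glutamate against Control, the log2 fold changes of the 10 genes lay between -0.27 for Dnajb1 and 0.36 for Hspe1, the smallest adjusted p was 0.784 from limma, and the arrays of the groups overlapped for all 10, where 28.3% of all probes lay apart, 13.3% upward and 15.0% downward. The median over the 10 genes was -0.11, beside 0.06 for all probes.

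The values above depend on which Control array is used. Of the 10 genes 9 were lower in Control Day 6 than in Control Day 4, all but Hspd1, where 70.5% of all probes were, and the median difference was -0.57 for the 10 genes and -0.40 for all probes. Dnajb1, Dnaja1 and Hspe1 were at least 2-fold lower in Control Day 6, with differences of -2.03, -1.45 and -1.16, where 25.4% of all probes were. Only Control Day 6 has the culture time of the Galactose arrays. Against Control Day 6 alone, the Galactose means were higher by 1.12 for Hsp90aa1 (standard error 0.20, adjusted p = 0.0145 from limma) and by 1.25 for Hspe1 (standard error 0.34, adjusted p = 0.0390). These 2 of 10 genes passed the test where 27.7% of all probes passed upward and 4.59% downward, and the test rests on 1 Control array that is taken to vary like the other groups. Against Control Day 4 alone the values were 0.24 and 0.09, and 0 of the 10 genes passed, where 0.0376% of all probes passed upward and 0.0752% downward. Dnajb1 was at 0.02 against Control Day 6 and at -2.01 against Control Day 4 (standard error 0.23, adjusted p = 0.0672). Day of culture and sample cannot be told apart in these 2 arrays. For Glutamate the values against Control Day 6 alone were 0.79 for Hsp90aa1, 0.94 for Hspe1 and 0.75 for Dnajb1 (adjusted p = 0.0598, 0.125 and 0.0887 from limma), where 13.9% of all probes passed upward and 2.63% downward. Against Control Day 4 alone they were -0.088, -0.22 and -1.28, where 0.00% passed upward and 0.0376% downward.

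**Figure D3:**
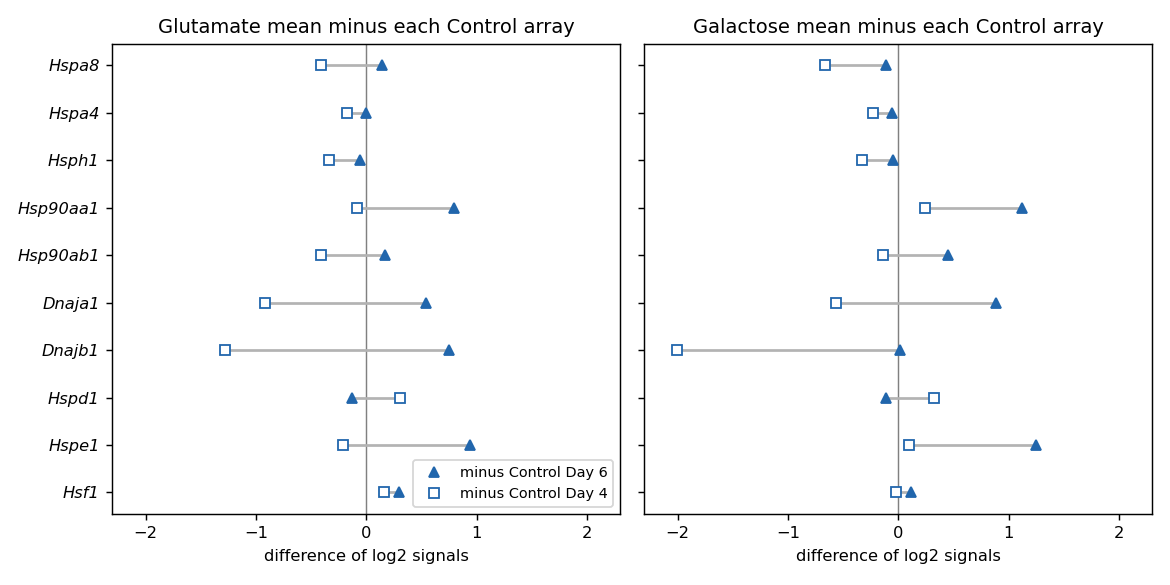
Difference of log2 signals (horizontal axis) between the mean of the Glutamate arrays or of the Galactose arrays and each Control array, for the 10 genes. Filled triangles are against Control Day 6 and open squares against Control Day 4, and for Dnajb1 in Galactose these are 0.02 and -2.01.

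The 10 genes did not all vary together over the arrays. Hspa8 and Hspa4 had a Pearson's r of 0.97, and r with Dnajb1 was 0.73 and 0.78. Since Hspa4 holds 1 value in 5 of the arrays, each r with Hspa4 rests on Control Day 4 and Galactose 1 as the arrays that differ. Hsp90aa1, Hspe1 and Dnaja1 had r between 0.67 and 0.80 with each other, while Hspa8 and Hspe1 had -0.26. The median of the 45 pairs was 0.19. These values rest on 7 arrays normalized together, and on the gap between the Control arrays, and are a description only. The mean of the 10 genes, each taken from its own mean, was -0.01 and 0.01 in the Glutamate arrays, -0.12, 0.05 and 0.08 in the Galactose arrays and -0.35 in Control Day 6 and 0.34 in Control Day 4. Among genes outside the lists, those that ran most like this mean were Olfml2a, Slc22a17, Reps1, Dipk1a and Eps15l1, with r of 0.97 to 0.99 over the 7 arrays. All 5 were highest in Control Day 4 and lowest in Control Day 6, as was the mean that they were picked to match.

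**Figure D4:**
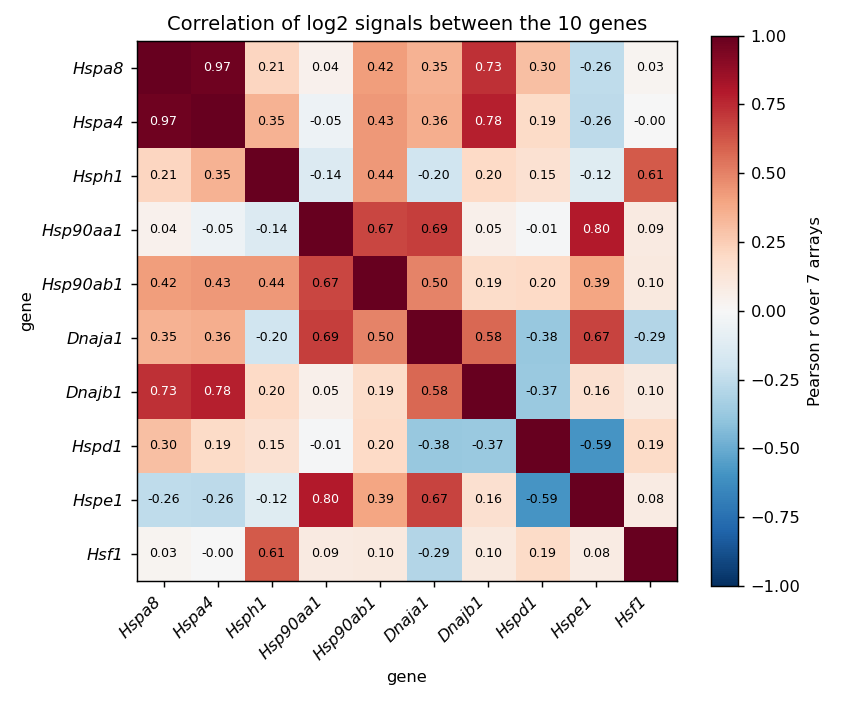
Pearson's r between the log2 signals of each pair of the 10 genes over the 7 arrays, from blue (-1) to red (1). Hspa8 with Hspa4 is highest at 0.97, where Hspa4 has the same value in 5 arrays, and Hspd1 with Hspe1 lowest at -0.59.

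The partners of these chaperones were read from 9 lists of 148 genes, for which 131 different probes were found, and 84 genes were above 5. Of the 84, 0 rose and 0 fell in limma in any comparison. Without adjustment, p was under 0.05 for 10 that lay higher in Galactose than in Control and for 1 that lay lower, where 11.8% and 5.23% of all probes did. For Glutamate against Galactose it was so for 0 upward and 5 downward, where 1.13% and 4.40% of all probes did. Of the cytosolic HSP70 and HSP110 paralogues with a probe, only Hspa2 was above 5. Its log2 signal was 4.06 ± 0.69 (SD, n = 2) in Glutamate, 5.05 ± 0.05 (SD, n = 3) in Galactose, against 4.80 ± 0.00 (SD, n = 2) for Control. Only its Galactose arrays, at 5.10, 5.03 and 5.02, were above 5. Hspa2 thus entered the test through the group in which it was high, and it is among the 5 genes counted downward. The classical inducible HSP70 genes Hspa1a and Hspa1b share 1 probe, which lay between 2.59 and 3.60 in the 7 arrays.

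Among the 14 further HSP40 genes above 5, the median log2 fold change for Galactose against Control was 0.05, with 7 means higher and 7 lower, and -0.10 with arrays centred. Centring left 51.4% of all probes higher for Galactose against Control and 50.6% for Glutamate against Galactose, with medians of 0.02 and 0.00. Dnajb4 had 0.89 (adjusted p = 0.280 from limma) and Dnajc30, a mitochondrial J-domain protein, 0.70, and Dnajc5, the synaptic vesicle chaperone CSPα, had -0.37 for Glutamate against Galactose. Of 13 HSP90 co-chaperones the median was 0.19, with 8 means higher. With arrays centred it was 0.042, with 7 higher, and against Control Day 4 alone 0.0068, also with 7 higher. Against Control Day 6 alone it was 0.35, with 10 higher, beside a median of 0.32 for all probes. Of all probes, 67.1% lay higher in Galactose against Control Day 6 alone and 47.9% against Control Day 4 alone. Chordc1, which binds HSP90, was the 1 gene of the lists lower at an unadjusted p under 0.05, with a log2 fold change of -0.55 (adjusted p = 0.258 from limma), and Tomm34, which links HSP70 and HSP90 in import into mitochondria, had 0.97 (adjusted p = 0.229). St13, on a probe shared with a pseudogene, had -0.43 for Glutamate against Galactose. Among the 4 nucleotide exchange factors of HSP70 above 5, Hspbp1 had 0.73 and Bag1 0.31 for Galactose against Control (adjusted p = 0.350 and 0.740 from limma). Bag1 lay at 5.50 to 5.87 in the Galactose arrays, against 4.47 in Control Day 6 and 6.26 in Control Day 4. Hspbp1 lay at 5.78 to 6.19 in the Galactose arrays, against 4.62 in Control Day 6 and 5.78 in Control Day 4. Bag3, itself a target of Hsf1, was at 4.79 ± 0.16 (SD, n = 2) in Glutamate, 5.27 ± 0.06 (SD, n = 3) in Galactose, against 5.28 ± 0.06 (SD, n = 2) for Control, with -0.48 for Glutamate against Galactose (adjusted p = 0.853 from limma).

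The chaperonin TRiC and its helpers, which fold actin and tubulin, had higher means for 12 of 13 genes in Galactose, with a median against Control of 0.50 beside 0.17 for all probes, and 12 of 13 also with arrays centred (median 0.35). Against Control Day 6 alone 13 of 13 means were higher, with a median of 0.93, beside 67.1% and 0.32 for all probes. Against Control Day 4 alone 8 of 13 were, with a median of 0.12, beside 47.9% and -0.02 for all probes. In Glutamate, 9 of the 13 means were lower than in Galactose, but 4 of 13 with arrays centred. Txndc9, a regulator of TRiC, had a log2 fold change of 1.43 and Cct6a, a TRiC subunit, one of 0.85 for Galactose against Control (adjusted p = 0.207 and 0.269 from limma). Of 15 mitochondrial chaperones and proteases, 12 means were higher in Galactose than those of Control, with a median of 0.33. With arrays centred 10 were, with a median of 0.18, and against Control Day 4 alone 9, with a median of 0.065. Against Control Day 6 alone 12 were, with a median of 0.93, beside the same 67.1% and 0.32 for all probes. Trap1, the HSP90 of mitochondria, was at 5.63 ± 0.05 (SD, n = 2) in Glutamate, 5.97 ± 0.27 (SD, n = 3) in Galactose, against 4.62 ± 0.63 (SD, n = 2) for Control. Its log2 fold change for Galactose against Control was 1.35 (adjusted p = 0.139 from limma), and Phb2, a prohibitin, had 1.07. Dnaja3, the HSP40 of mitochondria, had -0.54 for Glutamate against Galactose. Of the other heat shock factors and their regulators, Hsf2 had 0.65 and Hsbp1, which binds Hsf1 trimers, 1.36 for Galactose against Control (adjusted p = 0.296 and 0.297 from limma), and Vcp had -0.24 for Glutamate against Galactose. Hsbp1 lay at 7.45 to 7.82 in the Galactose arrays, against 5.14 in Control Day 6 and 7.33 in Control Day 4.

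In the endoplasmic reticulum, 11 of 15 chaperones had a mean above that of Control in Galactose, and 14 of 15 a lower one in Glutamate than in Galactose, with medians of 0.36 and -0.31, and with arrays centred the counts were 9 and 9 of 15, with medians of 0.21 and -0.20. Against Control Day 4 alone 10 of 15 were higher in Galactose, with a median of 0.26, where 47.9% of all probes were. Against Control Day 6 alone 13 of 15 were, with a median of 0.43, beside 67.1% and 0.32 for all probes. Hspa5, the HSP70 of that compartment, had log2 fold changes of 0.73 and -1.15, Dnajb9 1.34 and -0.39, and P4hb 1.14 and -0.82 (smallest adjusted p = 0.128 and 0.606 from limma). Hspb8, a small heat shock protein, had 1.95 and -1.62, and Hspb6 0.95 and -1.0. The study chose Hspb8 on these arrays, so these values are not independent evidence for it. Txndc9, with 1.43 and -0.71, and P4hb also met the study's fold rule on these arrays. The study also lists Hspb8 among the genes whose variation it found by RT-qPCR. The Glutamate arrays of Hspb8 lay at 3.71 and 5.83, and its Galactose arrays at 6.79, 6.81 and 5.58. Of the 4 small heat shock proteins above 5, 4 means were higher in Galactose than in Control Day 6, but 1 was higher than in Control Day 4. The shares of all probes were 67.1% and 47.9%.

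**Figure D5:**
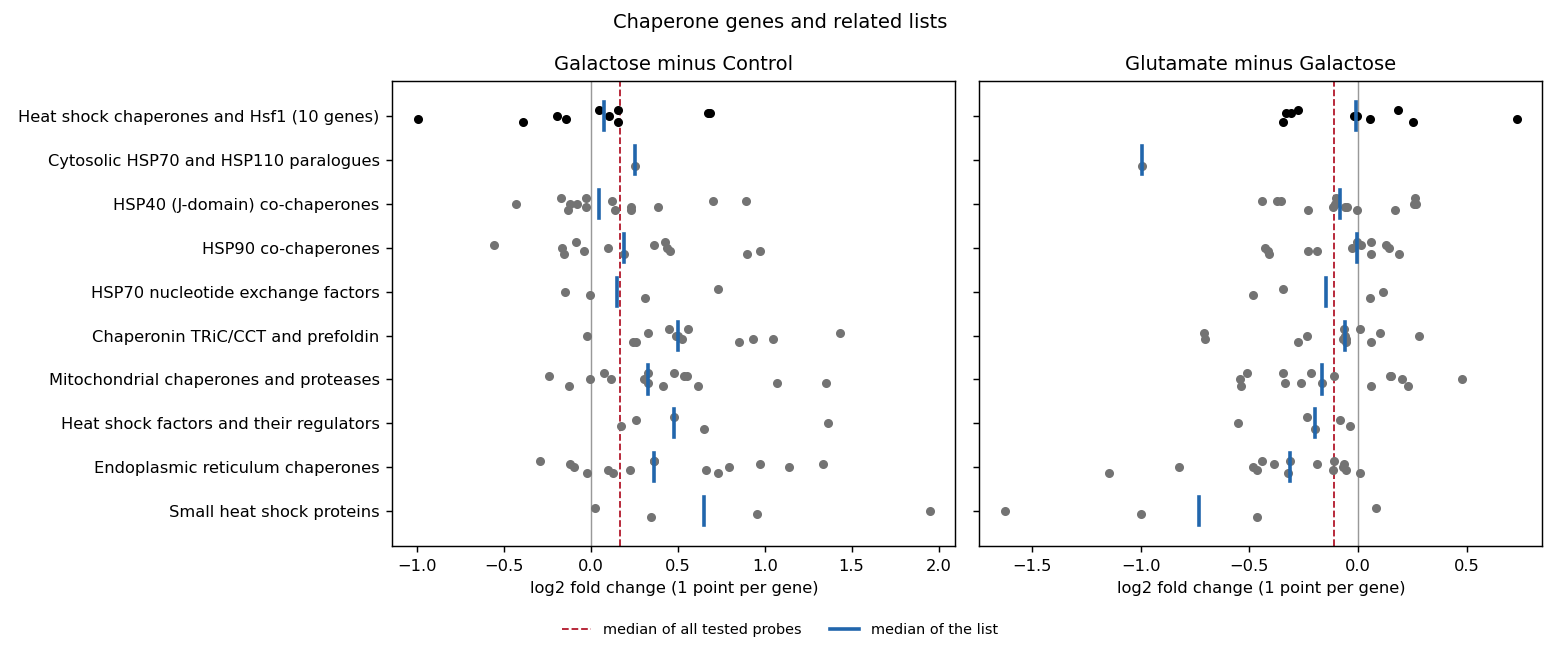
Log2 fold changes (horizontal axis) of the 10 genes and of the 84 genes of the 9 related lists, 1 point per gene, for Galactose minus Control and Glutamate minus Galactose. Blue bars are the median of each list and the dashed line is the median of all 5320 probes, 0.17 and -0.11.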

How the data were processed

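RNA of 7 cultured rat lens samples was hybridised to GeneChip Rat Gene 2.0 ST arrays, 1 per sample. The authors ran Robust Multi-array Average over all arrays and deposited log2 signals for each probe. The software is not given in the sources used here, and no scan batch was given. Probes were named from the platform annotation (18511 with 1 gene, 575 with several, which were kept for the genes named), and only probes above 5 in at least 1 array were tested, the limit used by the study.

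A linear model with a mean for each group was fitted to all 7 arrays (4 residual degrees of freedom) using limma 3.58.1 (R 4.3.3). The Benjamini-Hochberg adjustment covered 5320 probes, with a threshold of 0.05. The test was checked on simulated data with the means and pooled spread of these probes, for Galactose against Control. It found 35.2% of log2 changes of 1, 74.8% of changes of 2 and 0.178% of unchanged probes, so that many changes of 2-fold would be missed. Each simulated probe had the same spread in all groups, while the real Control arrays lay farthest apart. These shares may therefore not hold for the real arrays. Tables and plots were made with Python 3.11.15, numpy 2.4.6, pandas 2.3.3 and matplotlib 3.10.9. Alternatives were other filters, scalings, variance models, probes and samples. The 10 genes and the lists were chosen with earlier results of these data known. From each list, the 2 genes with the smallest p for Galactose against Control and the 1 for Glutamate against Galactose are named, with any that changed. No image files were used, so the background correction could not be varied.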

Additional observations from a re-analysis of the deposited data

How the results depend on the processing

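The number of probes called for Galactose against Control was 5, and it was 0 with no filter, 11 with probes above 6 only, 45 with arrays centred on their median, 20 after a second quantile normalization and 1 with the compared groups alone. Their split into higher and lower was 3 and 2, against 26 and 19 with centring and 13 and 7 after the second quantile normalization. These scalings moved the median of all probes by -0.15 and -0.16 for Galactose against Control and by 0.12 and 0.12 for Glutamate against Galactose. The counts of the related lists with arrays centred and against each Control array alone were added after seeing the data. For Glutamate against Control the count of 0 was 1 with centring and 1 after quantile normalization, and the 254 probes of the fold rule were 152 after quantile normalization. The cause of these shifts was not tested.

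Leaving out 1 array at a time gave 0 to 1717 calls for Galactose against Control (1717 without Control Day 4, 6 without Control Day 6, 0 without any 1 Galactose array and 1 without either Glutamate array), 0 to 2 of the 10 genes, 0 to 880 calls for Glutamate against Control (880 without Control Day 4) and 132 to 365 probes of the fold rule (132 without Control Day 6).

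Of 427 alternative values of the 10 genes, 387 kept direction and side of the threshold, 38 turned direction and 2 newly passed, Hsp90aa1 at 1.12 and Hspe1 at 1.25 without Control Day 4. For Galactose against Control, quantile normalization gave -0.20 for Hsp90ab1, -0.062 for Dnaja1, -0.14 for Hspd1 and -0.086 for Hsf1, and centring -0.044 for Hspd1 and -0.10 for Hsf1. For Glutamate against Galactose, centring gave 0.11 for Hsph1 and 0.10 for Hspd1, quantile normalization 0.090 and 0.15, and the mean of all probes 0.032 for Hspd1. Leaving out 1 array gave, for Galactose against Control, 0.24 to 1.12 for Hsp90aa1, -0.14 to 0.45 for Hsp90ab1, -0.57 to 0.88 for Dnaja1, -2.01 to 0.019 for Dnajb1, -0.13 to 0.40 for Hspd1, 0.09 to 1.25 for Hspe1 and -0.020 to 0.12 for Hsf1. For Glutamate against Galactose it gave -0.46 to 0.45 for Hsph1, -0.75 to 0.060 for Dnaja1, -0.31 to 0.22 for Hspd1 and -0.035 to 0.40 for Hsf1. For Glutamate against Control it gave -0.41 to 0.14 for Hspa8, -0.65 to 0.26 for Hsph1, -0.088 to 0.79 for Hsp90aa1, -0.42 to 0.17 for Hsp90ab1, -0.92 to 0.53 for Dnaja1, -1.28 to 0.75 for Dnajb1, -0.13 to 0.30 for Hspd1 and -0.22 to 0.94 for Hspe1.

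With the replicate number as a block, Glutamate against Galactose had 0 calls among all probes and among the 10 genes, and Hsph1 was at 0.022 and Hspd1 at 0.034. Arrays with the same number had deviations that correlated at -0.03 and 0.06 over probes. The deviations of the 2 Glutamate arrays from their mean are mirror images, so these values cannot show or exclude a shared source. The labels give no shared source.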
